A study of Mus musculus with 2 samples.

Results

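The 31 genes described here carry acetyl-CoA into cholesterol and into fatty acids, or control that synthesis. They were taken by symbol from a list of pathway members, and all 31 are among the 14198 annotated genes with at least 1 read in C2C12 cells. C2C12 is a mouse myoblast line whose origin, per the labels, is thigh muscle of C3H mice after a crush. The series has 1 group, whose total RNA was read as long reads in 2 libraries, labelled biological replicates 1 and 2. There is no other group to compare with, whether treated, mutant or in another differentiation state. The line is a single cell line, and the labels give neither the differentiation state nor the sequencing platform. Comparisons were therefore possible only between the 2 libraries, with replicate 1 set over replicate 2, and p-values measure the difference between these libraries and not an effect of a condition.

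Cholesterol is built from acetyl-CoA through mevalonate and the isoprenoid farnesyl diphosphate, which squalene synthase commits to sterols. Squalene is closed to lanosterol, and lanosterol is trimmed to cholesterol in the endoplasmic reticulum. The sterol regulatory element binding proteins (SREBPs) switch on most of these genes and those of fatty acid synthesis. When sterols are scarce, SCAP escorts the SREBPs to the Golgi for cleavage, and when sterols are plentiful, the INSIG proteins hold SCAP back. In muscle cells the same precursors feed membranes, prenylated proteins and dolichol.

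Replicate 1 held 791850 reads on 82272 transcript models and replicate 2 held 735077 reads on 78691 models. Of these, 773408 and 722647 reads lay on annotated genes, and levels are CPM, which scale a count to those reads of its library, as mean ± SD with n = 2. A long read counts 1 molecule whatever its length, so levels were not divided by transcript length. Whether long transcripts gave fewer reads per molecule was not tested, which limits comparison of levels between genes of unlike length. With 0 reads, a level of up to 3.88 CPM in replicate 1 or 4.15 CPM in replicate 2 would still be possible (3 counts). All intervals, limits of this kind and p-values cover counting error only. The label of the cells was checked on their markers. All 5 myoblast markers (Myod1, Des, Cdh15, Itga7 and Mymk) had reads in both libraries and summed to 2039 ± 388 CPM, while the 5 adipocyte and the 5 hepatocyte markers had 0 reads in both. Of 5 blood and endothelial markers, Cd68 had 3 and 2 reads, Pecam1 had 0 and 1, and the others had 0.

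All 31 genes had reads in both libraries, and each had at least 5 in each. Together they took 2904 CPM in replicate 1 and 3264 CPM in replicate 2, or 3084 ± 255 CPM. Their median level was 67.4 CPM, beside 37.1 CPM over the 8940 genes with at least 10 reads over both libraries. The steps from acetyl-CoA to farnesyl diphosphate summed to 1007 and 1168 CPM (1088 ± 114) over 7 genes. The 3 genes from farnesyl diphosphate to lanosterol summed to 342.6 and 459.4 CPM (401.0 ± 82.6), and the 8 genes from lanosterol to cholesterol to 690.5 and 809.5 CPM (750.0 ± 84.2). All 3 sterol segments were thus higher in replicate 2. The 6 genes of SREBP control and sterol transport summed to 389.2 and 343.2 CPM (366.2 ± 32.5). That difference lay in reads on single-exon models, of which this group had 81 in replicate 1 and 43 in replicate 2. Without them it summed to 284.5 and 283.7 CPM. The 7 genes of fatty acid synthesis summed to 474.5 and 484.3 CPM (479.4 ± 6.93). This sum rests on incomplete reads as well, since complete models alone gave 269.4 CPM. Its single-exon models held 156 reads in replicate 1 and 120 in replicate 2. Without them it summed to 272.8 and 318.3 CPM, further apart than with them.

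**Figure D1:**
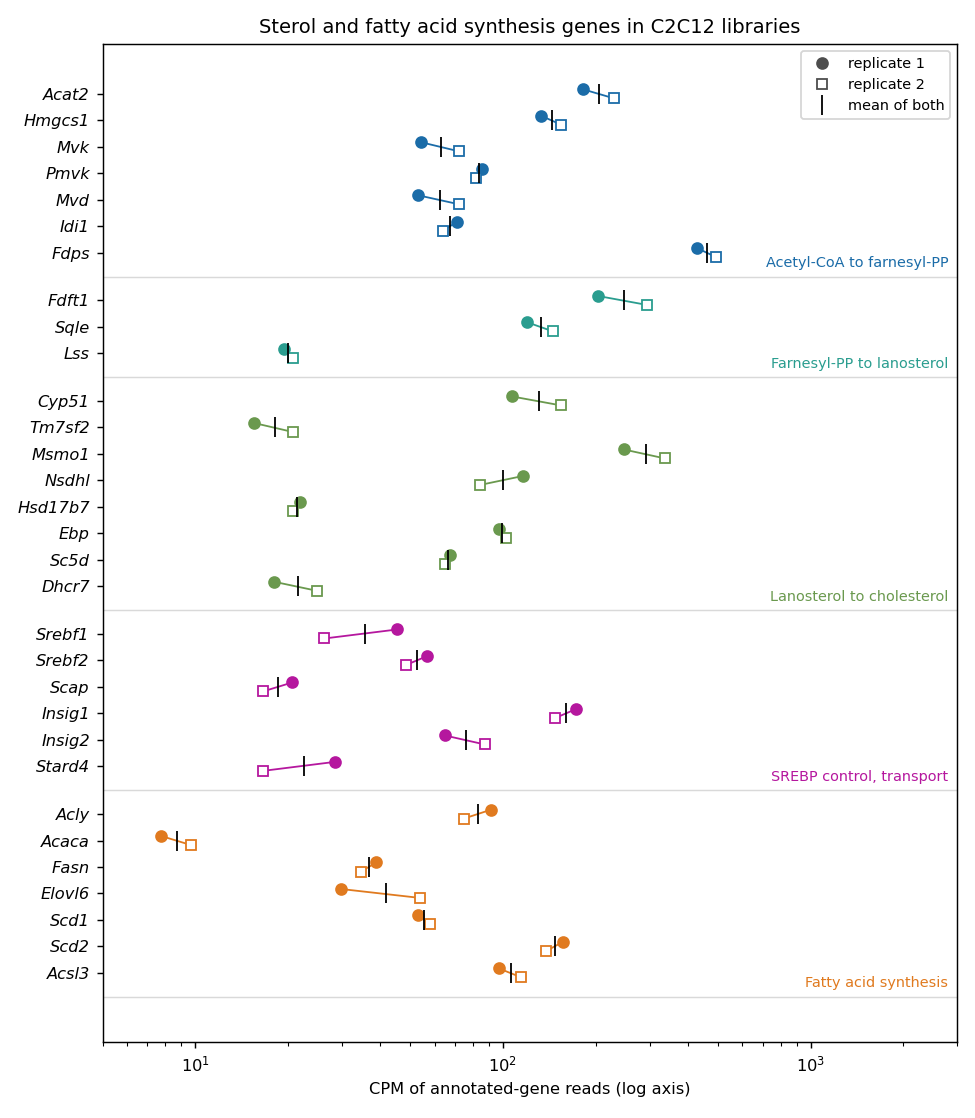
Level of each of the 31 genes in CPM (log axis), grouped by role, with a filled circle for replicate 1, an open square for replicate 2 and a tick for their mean. Fdps stood highest in both libraries (428.0 and 494.0 CPM) and Acaca lowest (7.758 and 9.687 CPM).

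Few of these genes differed between the libraries. An exact binomial test given the library totals, adjusted by Benjamini-Hochberg over all 8940 genes tested, called 2 of the 31 at 0.05, while it called 3.98% of all genes tested (356). Fdft1 and Msmo1 were the 2, both higher in replicate 2. At an unadjusted p under 0.05 there were 5 of 31 genes (16.1%), beside 13.9% of all genes. The share of members past the threshold lay near that of all genes by both counts. The log2 ratio of replicate 1 over replicate 2 had a median of -0.13 over the 31 genes and -0.06 over all genes tested. It ran from -0.85 for Elovl6 to 0.77 for Srebf1, and no member reached a 2-fold difference, beside 762 of the 8940 genes tested. The median level was 67.4 CPM over the members and 37.1 CPM over all genes tested. Counts of 2-fold differences were not compared at matched levels. The ratio was above 0 for 13 members and below 0 for 18. The pooled spread of the libraries, as a biological coefficient of variation from edgeR, was 0.136. With that spread in edgeR's exact test 0 members and 9 of all genes were called. The spread was estimated from these same 2 libraries and includes their difference, so that test cannot settle the 2 calls. The binomial test behind both calls allows for counting error alone. Among the 356 calls, 232 favoured replicate 1 and 124 replicate 2, a split that TMM scaling moved to 303 and 82.

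**Figure D2:**
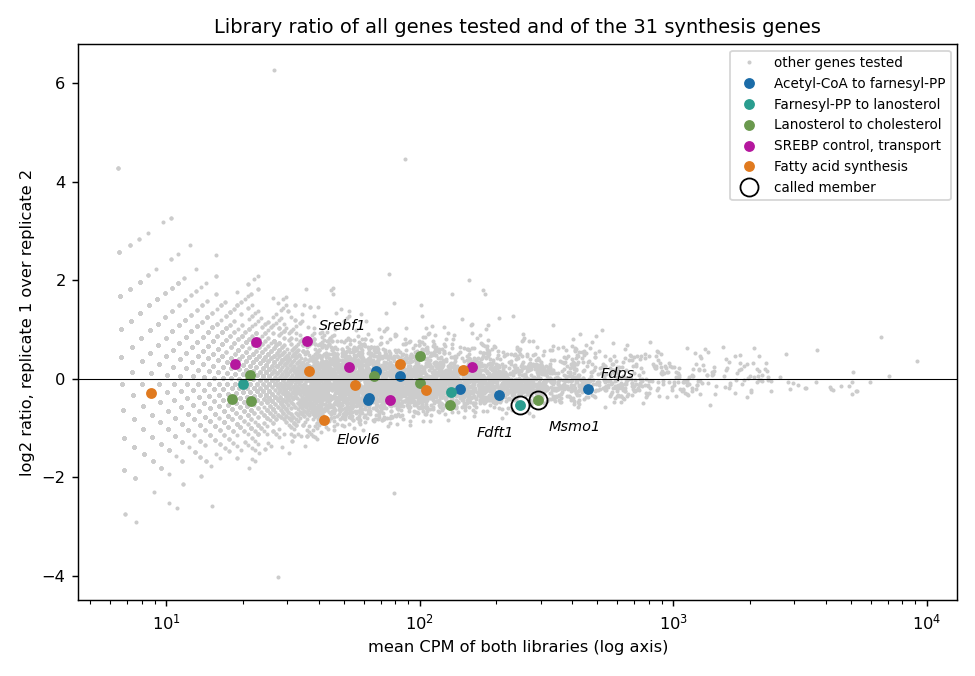
Log2 ratio of replicate 1 over replicate 2 against mean CPM (log axis) for all genes tested (grey) and the 31 synthesis genes (coloured by role), with the 2 called members ringed. The coloured points lie between -0.85 and 0.77, inside the spread of the grey points at their level.

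The mevalonate steps were led by the enzyme that closes them. Fdps (ENSMUSG00000059743.12; mm10 chromosome 3, 89093588 to 89101959, minus strand) encodes farnesyl diphosphate synthase and had 331 reads in replicate 1 and 357 in replicate 2, or 461.0 ± 46.7 CPM. That level lay above 96.1% of the coding genes tested. Acat2, which encodes a cytosolic acetoacetyl-CoA thiolase at the head of the pathway, had 141 and 166 reads (206.0 ± 33.5 CPM). Hmgcs1 (ENSMUSG00000093930.2; chromosome 13, 119690379 to 119708260, plus strand), the cytosolic HMG-CoA synthase, had 103 and 112 reads (144.1 ± 15.4 CPM). The kinases and the decarboxylase between mevalonate and isopentenyl diphosphate were lower. Pmvk, phosphomevalonate kinase, had 66 and 59 reads (83.49 ± 2.61 CPM). Mvk, mevalonate kinase, had 42 and 52 reads (63.13 ± 12.5 CPM), and Mvd, the decarboxylase, had 41 and 52 (62.48 ± 13.4 CPM). Mvk and Mvd stood within each other's spread. Idi1, which isomerises isopentenyl diphosphate, had 55 and 46 reads (67.38 ± 5.27 CPM), and its spread overlapped those of Mvk and Mvd. None of these 7 genes was called, and Acat2 alone was at an unadjusted p under 0.05 (exact binomial p = 0.0456, adjusted 0.340, log2 ratio -0.33).

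Reads can be split between a gene and its near-identical processed pseudogenes. Idi1 has 3 such copies at 90% identity or more over at least 200 bases, and the copy Gm13502 is 100% identical over 684 bases. These copies took 1 read in replicate 1 and 9 in replicate 2, beside 55 and 46 on Idi1 itself. With them added, Idi1 would have 56 reads in replicate 1 and 55 in replicate 2 (72.41 and 76.11 CPM), and its ratio would change sign. The 5 copies of Fdps took 3 and 5 reads and the 1 copy of Fdft1 took 0 and 1. The single copies of Acaca and Elovl6 took 0. Among coding genes, Acat3 (97.7% identical to Acat2 over 1477 bases) and Scd3 (91.4% identical to Scd1 over 1053 bases) had 0 reads in both libraries. Tcp1, 98.7% identical to Acat2 over 445 bases, had 451 and 497 reads. Scd1 is 95.5% identical to Scd2 over 623 bases, so the split of reads within both of these pairs is uncertain.

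The promoter of Hmgcs1 was the only one of the 25 genes with a RefSeq promoter window to hold the 9-base core of a sterol regulatory element, and it is shown for that reason. Windows run from 250 bases before to 50 bases after a start site on GRCm38.p6, the assembly of mm10. Of the others, Fdft1, Fdps, Scd1, Scd2, Sqle and Stard4 had no entry. In the Hmgcs1 window, chr13:119690101-119690400 on the plus strand, capitals mark TCACNCCAC (sterol regulatory element core), CCAAT (NF-Y box), GGGCGG (Sp1 box) and CACGTG (E-box) on either strand. The core lies 137 bases before the start, between CCAAT boxes 176 and 45 bases before it.
Hmgcs1 promoter: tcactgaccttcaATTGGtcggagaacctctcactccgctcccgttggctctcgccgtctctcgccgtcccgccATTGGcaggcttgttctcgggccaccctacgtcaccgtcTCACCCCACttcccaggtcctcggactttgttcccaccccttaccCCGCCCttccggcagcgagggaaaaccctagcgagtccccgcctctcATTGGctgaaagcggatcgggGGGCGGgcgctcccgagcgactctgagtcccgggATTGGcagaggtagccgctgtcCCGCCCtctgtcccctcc

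NF-Y and Sp1 are factors known to act beside SREBPs at such promoters. The core TCACNCCAC was in 1 of 25 genes, in 1.44% of all 27025 genes of the table and in 1.36% of its 6894 genes that were tested here. CCAAT was in 21 of 25 genes (84.0%), 41.1% of all genes and 43.8% of those tested. GGGCGG was likewise in 21 of 25 (84.0%), against 38.2% of all genes and 71.8% of those tested. CACGTG was in 5 of 25, against 8.09% and 12.5%. In percentage points, the gap to the tested genes was widest for CCAAT. Counted by window, CCAAT was in 22 of 33 (66.7%), beside 37.4% of all windows. For Insig2 and Pmvk the matching window lay 4565 and 4577 bases from the nearest listed 5′ end with at least 5 reads, and the other windows of both had no CCAAT. Of 22 genes with a window within 250 bases of such an end, 18 (81.8%) had CCAAT in it. The 4 motifs shared no bases in the windows, apart from CCAAT on both strands of the Fasn window with 2 bases in common. A match describes letters and not binding.

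**Figure D3:**
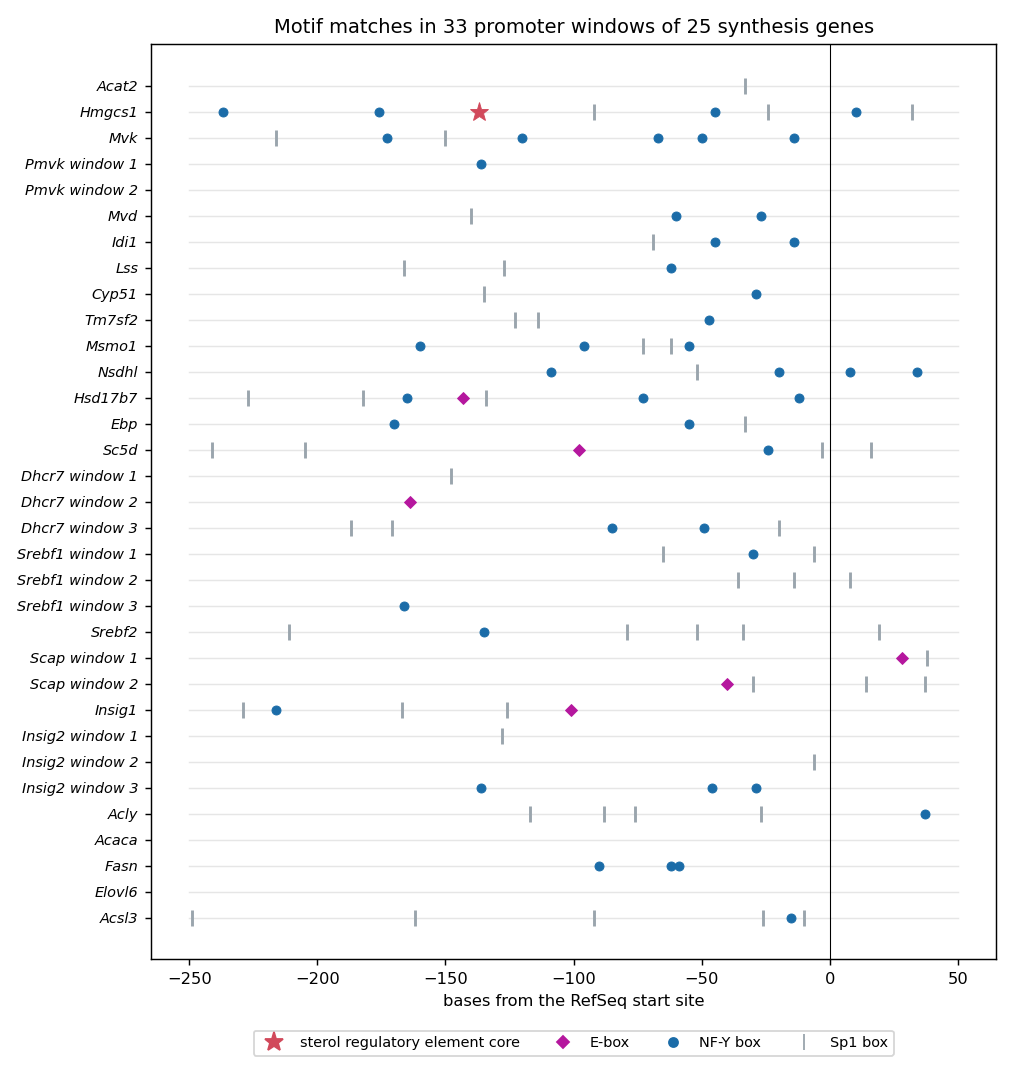
Motif matches in the 33 promoter windows of 25 genes by distance from the RefSeq start site in bases, with a symbol for each of the 4 motifs on either strand. The sterol regulatory element core appears once, in Hmgcs1 at 137 bases before the start, while NF-Y boxes appear in windows of 21 genes.

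Squalene synthase and the oxidase after it were well read, and lanosterol synthase was not. Fdft1 (ENSMUSG00000021273.10; chromosome 14, 63145150 to 63179578, minus strand), which encodes squalene synthase, had 157 reads in replicate 1 and 212 in replicate 2 (203.0 and 293.4 CPM). Replicate 2 was the higher, with a log2 ratio of -0.53 (exact binomial p = 4.70e-04, adjusted 0.0167). Fdft1 overlaps Ctsb on the opposite strand over 774 bases of transcript, Ctsb had 918 and 935 reads, and the use of strand in the counting is not given in the sources used here. Sqle, squalene epoxidase, had 93 and 105 reads (132.8 ± 17.7 CPM). Lss, which closes squalene epoxide to lanosterol, had 15 reads in each library (20.08 ± 0.963 CPM), above only 31.4% of the coding genes tested.

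The genes from lanosterol to cholesterol spanned a wide range of levels. Msmo1 (ENSMUSG00000031604.10; chromosome 8, 64718139 to 64733792, minus strand), the methylsterol oxidase that starts removal of the methyl groups at carbon 4, had 191 reads in replicate 1 and 243 in replicate 2 (247.0 and 336.3 CPM). Replicate 2 was again the higher, with a log2 ratio of -0.44 (exact binomial p = 0.00150, adjusted 0.0408). The call of Msmo1 did not hold with TMM scaling (adjusted 0.0993), DESeq2 size factors (0.110), no filter on low counts (0.0647) or complete models alone (0.174). Cyp51, lanosterol demethylase, had 83 and 112 reads (131.2 ± 33.7 CPM) at a log2 ratio of -0.53, which was not called (exact binomial p = 0.0120, adjusted 0.160). Nsdhl, the sterol dehydrogenase that acts after Msmo1, went the other way with 90 and 61 reads (100.4 ± 22.6 CPM; log2 ratio 0.46, exact binomial p = 0.0607). Ebp, a sterol isomerase, had 75 and 74 reads (99.69 ± 3.84 CPM), and Sc5d, sterol C5-desaturase, had 52 and 47 (66.14 ± 1.55 CPM). A further 3 enzymes had under 20 reads in each library. Hsd17b7, a ketoreductase, had 17 and 15 reads, Dhcr7, the reductase of the last step, had 14 and 18, and Tm7sf2, a sterol reductase of the endoplasmic reticulum, had 12 and 15. Their means lay between 18.14 and 21.51 CPM and did not differ beyond their spread.

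The promoter window of Msmo1 is printed because, of the 2 called genes, Msmo1 has an entry and Fdft1 has none. It was chosen after the values were seen. It lies at chr8:64733529-64733828 on the minus strand and holds 3 CCAAT and 2 GGGCGG matches, in capitals, with a pair of Sp1 boxes 73 and 62 bases before the start beside a CCAAT box at 55 bases. Models with 397 of its 425 spliced reads (93.4%) begin at 64733792, which is 214 bases upstream of that RefSeq start. These boxes lie inside the first exon of those models. That end is the annotated 5′ end of the gene, and where the reads themselves began was not tested.
Msmo1 promoter: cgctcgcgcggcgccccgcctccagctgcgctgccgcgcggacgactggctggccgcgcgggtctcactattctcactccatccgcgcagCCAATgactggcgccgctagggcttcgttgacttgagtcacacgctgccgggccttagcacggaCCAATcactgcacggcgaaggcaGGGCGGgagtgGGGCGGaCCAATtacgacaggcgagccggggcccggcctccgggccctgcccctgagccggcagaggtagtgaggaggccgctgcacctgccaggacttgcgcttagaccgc

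Dhcr7 (ENSMUSG00000058454.15; chromosome 7, 143823145 to 143848410, plus strand) had no complete annotated reads. None of its 32 reads lay on an annotated transcript. Of these, 22 (7 in replicate 1 and 15 in replicate 2) lay on 1 model of 8 exons that starts at 143830234 and matches the downstream exons of an annotated transcript. Over all models, 23 of 28 spliced reads (82.1%, Wilson 95% interval 64.4 to 92.1) had this listed 5′ end. It equals the 5′ end of an annotated Dhcr7 transcript, and other annotated transcripts carry a longer form of the same exon. Whether these reads started there or were cut short was not tested. RefSeq lists a start site at 143830214, 20 bases upstream of that end. The window at this start, chr7:143829964-143830263 on the plus strand, is shown because it spans the listed end, and it was chosen after the values were seen. It has 2 CCAAT and 3 GGGCGG matches in capitals.
Dhcr7 promoter: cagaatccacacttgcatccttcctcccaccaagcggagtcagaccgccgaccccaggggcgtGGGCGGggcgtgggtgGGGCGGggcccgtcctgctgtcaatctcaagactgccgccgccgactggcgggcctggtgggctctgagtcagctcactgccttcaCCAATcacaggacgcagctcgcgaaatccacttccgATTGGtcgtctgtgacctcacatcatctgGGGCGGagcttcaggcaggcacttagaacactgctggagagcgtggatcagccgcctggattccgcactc

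Among the SREBP genes and their partners, Insig1 was the highest. Insig1, which retains SCAP in the endoplasmic reticulum, had 134 and 107 reads (160.7 ± 17.8 CPM). Its paralogue Insig2 had 50 and 63 reads (75.91 ± 15.9 CPM), below Insig1 in both libraries. Srebf2 (ENSMUSG00000022463.8; chromosome 15, 82147181 to 82205379, plus strand), the SREBP that mainly serves sterol synthesis, had 44 and 35 reads (52.66 ± 5.98 CPM). Srebf1 (ENSMUSG00000020538.15; chromosome 11, 60199089 to 60222581, minus strand), the SREBP of fatty acid synthesis, had 35 and 19 reads (35.77 ± 13.4 CPM). Srebf1 had the highest ratio of the 31 genes at 0.77 on the log2 scale, which was not called (exact binomial p = 0.0572, adjusted 0.383). Stard4, a sterol carrier, had 22 and 12 reads (22.53 ± 8.37 CPM), and Scap, the SREBP escort, had 16 and 12 (18.65 ± 2.89 CPM). Replicate 1 was the higher for 5 of these 6 genes and replicate 2 for Insig2, and none was called. On complete models alone, scaled to the complete-model reads of each library, replicate 1 was the higher for 4 of the 6, not for Scap or Insig2.

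Srebf1 has separate promoters for SREBP-1a and SREBP-1c, which differ in the first exon. The distal first exon, of SREBP-1a, starts at 60220604 and had 11 reads in replicate 1 and 7 in replicate 2. The proximal first exon, of SREBP-1c, starts at 60210465 and had 9 and 1. The distal exon was thus in 18 of 48 spliced reads (37.5%, Wilson 95% interval 25.2 to 51.6) and the proximal in 10 (20.8%, 11.7 to 34.3), and the 2 intervals overlapped. Of the remaining spliced reads, 11 in replicate 1 and 6 in replicate 2 lay on incomplete models. The others, 1 and 2, lay on Srebf1-206, a transcript of 3 exons. Both shares count these reads, and whether they came from either promoter was not tested. Full chains of 19 exons were read from both promoters. Srebf1-201 with the distal exon had 10 and 6 reads, and an unannotated chain of annotated splice sites with the proximal exon had 6 and 1. Most of the proximal reads lay in replicate 1. Both windows are shown because models of either begin within 23 bases of a RefSeq start, and they were chosen after the values were seen. The distal window is chr11:60220578-60220877 and the proximal chr11:60210422-60210721, both on the minus strand. In the letters searched, the distal window has 3 Sp1 boxes and no CCAAT, and the proximal has 2 Sp1 boxes and a CCAAT box 30 bases before the start.
Srebf1 distal promoter: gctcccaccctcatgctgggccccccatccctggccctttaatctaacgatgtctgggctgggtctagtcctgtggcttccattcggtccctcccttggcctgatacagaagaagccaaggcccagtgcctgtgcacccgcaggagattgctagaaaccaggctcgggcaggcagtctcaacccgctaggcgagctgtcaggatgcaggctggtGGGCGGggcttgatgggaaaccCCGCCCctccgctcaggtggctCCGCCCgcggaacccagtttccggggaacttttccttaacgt
Srebf1 proximal promoter: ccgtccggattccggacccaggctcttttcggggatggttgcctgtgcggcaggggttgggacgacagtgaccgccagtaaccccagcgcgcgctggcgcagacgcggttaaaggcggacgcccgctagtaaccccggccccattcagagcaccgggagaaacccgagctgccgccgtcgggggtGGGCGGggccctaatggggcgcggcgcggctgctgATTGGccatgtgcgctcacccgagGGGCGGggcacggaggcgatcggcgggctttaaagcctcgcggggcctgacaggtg

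Most spliced reads of Srebf2 ended early in the gene. Srebf2-205, a transcript of 4 exons that GENCODE classes as a retained intron, had 18 reads in replicate 1 and 17 in replicate 2. Srebf2-201, the coding transcript of 19 exons and 5077 bases, had 2 in each. Over all spliced models, 20 and 18 reads had their last exon at 82172753, where Srebf2-205 ends, which made 38 of 54 (70.4%, Wilson 95% interval 57.2 to 80.9). The last exon of the full transcript, at 82203697, took 9 and 5 reads, or 14 of 54 (25.9%, 16.1 to 38.9). The short form thus led among spliced reads. A further 25 reads (14 and 11) were single-exon models. Of these, 13 and 10 lay inside the last exon of the full transcript and 1 and 1 at the short end. With them counted, the full end had 22 reads and the short end 21 in replicate 1, and 15 and 19 in replicate 2, so the lead did not hold in replicate 1. Reads of long transcripts were less often complete in these libraries, and the part of this in the low count of Srebf2-201 was not tested.

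**Figure D4:**
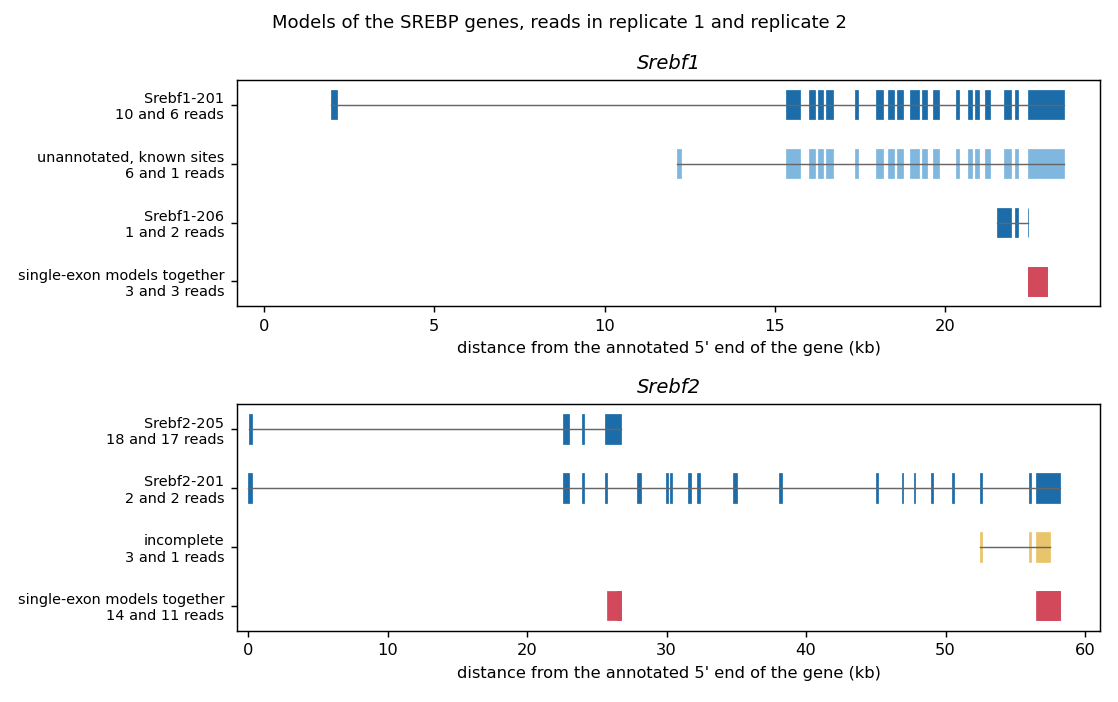
Exons (boxes) of the Srebf1 and Srebf2 models with at least 3 reads over both libraries, by distance in kb from the annotated 5′ end of the gene, with reads in replicate 1 and replicate 2 at the left. Srebf2-205 (18 and 17 reads) stops before the middle of the gene, and Srebf1 has full chains from a distal (10 and 6 reads) and a proximal first exon (6 and 1).

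Genes of fatty acid synthesis ranged in mean level from 8.722 CPM for Acaca to 147.4 CPM for Scd2. Scd2 (ENSMUSG00000025203.6; chromosome 19, 44293674 to 44306864, plus strand), a stearoyl-CoA desaturase, had 121 reads in replicate 1 and 100 in replicate 2 (147.4 ± 12.8 CPM). Its paralogue Scd1 had 41 and 42 reads (55.57 ± 3.61 CPM), below Scd2 in both libraries, with the split of reads between these paralogues uncertain. On complete models the order was reversed, with 24 and 22 reads for Scd1 and 12 and 15 for Scd2. Acsl3, which activates long-chain fatty acids, had 75 and 83 reads (105.9 ± 12.6 CPM), and Acly, which makes cytosolic acetyl-CoA from citrate, had 71 and 54 (83.26 ± 12.1 CPM). Elovl6, an elongase of fatty acids, had 23 and 39 reads (41.85 ± 17.1 CPM) and the lowest ratio of the 31 genes at -0.85 on the log2 scale. It was higher in replicate 2 but not called (exact binomial p = 0.0223, adjusted 0.232). Fasn, fatty acid synthase, had 30 and 25 reads (36.69 ± 2.97 CPM). Acaca, the acetyl-CoA carboxylase that commits carbon to fatty acids, had 6 and 7 reads (8.722 ± 1.36 CPM), above 8.50% of the coding genes tested.

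How much of each transcript was read differed by role. Complete models, which are annotated transcripts or unannotated chains of the TALON classes NIC and NNC (with annotated splice sites alone, or with at least 1 other site), took 92.3% of reads from farnesyl diphosphate to lanosterol. They took 87.8% from lanosterol to cholesterol and 81.5% in the mevalonate steps, but 68.1% in SREBP control and 48.4% in fatty acid synthesis. The median of the 31 genes was 79.0%, beside 86.3% over all genes tested. The share fell with the length of the longest coding transcript. Across the 31 genes Spearman's rho was -0.61 and Pearson's r -0.68, and across 8417 coding genes rho was -0.59 and r -0.44. These are descriptions across genes of the same 2 libraries. For transcripts of 2000 to 3000 bases the median was 91.7% over 7 members and 88.4% over 2034 coding genes. Above 5000 bases it was 33.3% over 6 members and 41.2% over 1381 coding genes.

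**Figure D5:**
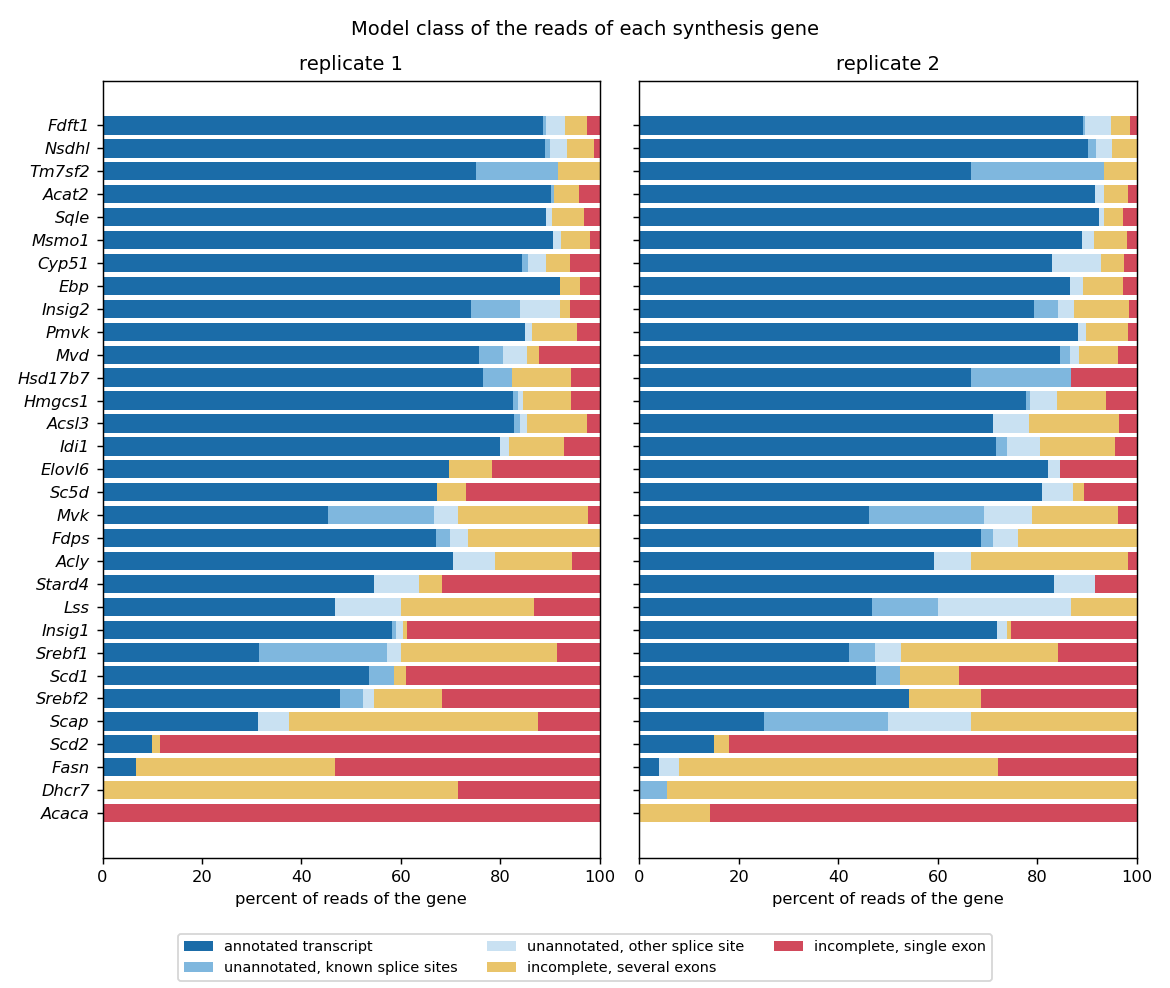
Share of the reads of each gene, in percent, by class of model, in replicate 1 (left) and replicate 2 (right), with genes ordered by their share of complete models (blue shades). Fdft1 and Nsdhl head the order at 94.0% each, and Scd2, Fasn, Dhcr7 and Acaca close it at 12.2% or less.

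The 4 genes at the foot of that order differed in how their reads fell. Acaca, with a longest coding transcript of 9513 bases, had 0 of 13 reads on complete models, which allows up to 22.8% by Wilson's 95% interval, and 92.3% of its reads were single-exon. Fasn, with a longest coding transcript of 10050 bases, had 4 of 55 (7.27%) on complete models, with 41.8% single-exon. None of the 4 lay on an annotated coding transcript. Fasn-203, a retained-intron transcript of 976 bases, had 2 in replicate 1 and 1 in replicate 2, and the other was unannotated. Dhcr7 had only 12.5% on single-exon models, and most of its reads lay on the spliced model of 8 exons. For Scd2, 107 reads in replicate 1 and 82 in replicate 2 lay on 1 single-exon model of 3634 bases inside its last exon, and the 6-exon transcript Scd2-201 had 12 and 15. Single-exon models thus held 85.5% of Scd2 reads, a share that 2.12% of coding genes reached. Insig1 had 52 and 27 reads on single-exon models in its last exon, while its 5-exon transcript Insig1-201 had 78 and 77. The higher total of Insig1 in replicate 1 lay in these single-exon reads and not in its complete ones, of which there were 81 and 79. Over all members, 500 of 506 single-exon reads lay inside an annotated last exon, 303 of the 506 in replicate 1 and 203 in replicate 2. The median share of complete models was 78.9% in replicate 1 and 84.6% in replicate 2, lower where single-exon reads were more, and the part of these reads in it was not tested.

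Of complete-model reads, most genes gave the larger part to 1 transcript. Of 19 members with 20 or more complete-model reads in each of the libraries, 12 (63.2%) had a most used transcript at 90% or more, beside 47.8% of 4262 genes. Taken of all reads of a gene, incomplete ones included, 1 of the 19 reached that share. Sqle-201 took 98.4%, Ebp-201 98.5%, Pmvk-201 98.2%, Msmo1-201 97.7% and Insig1-201 96.9% of complete-model reads. Nsdhl-201 with 95.1%, Fdft1-201 with 94.5%, Idi1-201 with 92.7%, Mvd-201 with 92.6%, Acat2-201 with 91.5%, Scd1-201 with 91.3% and Cyp51-201 with 91.0% made up the 12. Below 90% lay Acsl3-205 (85.3%), Fdps-201 (84.7%), Sc5d-201 (82.9%), Insig2-201 (82.2%), Hmgcs1-201 (70.7%), Acly-201 (55.4%) and Mvk-201 (36.6%). Between the libraries, use of the main transcript was compared by Fisher's exact test, which called 0 of these 19, beside 0.0704% of all genes tested (3). At an unadjusted p under 0.05 only Hmgcs1 appeared, with Hmgcs1-201 at 78.2% in replicate 1 and 63.8% in replicate 2 (exact p = 0.0493, adjusted 1.00).

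Some of the alternative forms change the coding sequence by whole codons. Acly-203 differs from Acly-201 by a coding exon of 30 bases (10 codons; mm10 chromosome 11, 100503160 to 100503189). It was present in 20 reads in replicate 1 and 15 in replicate 2 and absent from 36 and 20, so 38.5% of 91 spanning reads held it (Wilson 95% interval 29.1 to 48.7). Mvk-202 extends an exon at its acceptor by 36 coding bases (12 codons; chromosome 5, 114450241 to 114450276), with 11 and 16 reads for the extension and 26 and 33 without it (31.4% of 86, 22.6 to 41.8). Fdps has a coding exon of 123 bases (41 codons; chromosome 3, 89095354 to 89095476) that 7 and 8 reads skipped and 293 and 331 included (97.7% of 639, 96.2 to 98.6). The intron that skips it is in no annotated transcript. The shares of the 3 segments were alike in both libraries, at 35.7% and 42.9% for Acly, 29.7% and 32.7% for Mvk and 97.7% and 97.6% for Fdps. The sequences are those of the GENCODE M21 transcripts, with the segment in capitals between 10 flanking transcript bases on each side.
Acly-203 exon: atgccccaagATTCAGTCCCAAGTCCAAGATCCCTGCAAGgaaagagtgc
Mvk-202 extension: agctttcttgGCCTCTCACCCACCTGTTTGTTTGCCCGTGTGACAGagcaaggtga
Fdps-201 exon: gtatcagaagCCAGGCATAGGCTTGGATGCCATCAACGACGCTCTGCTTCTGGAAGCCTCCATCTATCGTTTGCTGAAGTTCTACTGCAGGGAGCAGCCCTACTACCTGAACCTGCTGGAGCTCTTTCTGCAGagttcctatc

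Other alternative exons, in Hmgcs1, Acsl3 and Fdps, lie outside the coding sequence. The listed ends of Fdps and Mvk models differed as well. An exon of 59 bases in the 5′ UTR of Hmgcs1-202 was present in 18 reads in replicate 1 and 28 in replicate 2, or 25.7% of 179 spanning reads (Wilson 95% interval 19.9 to 32.6). A 5′ UTR exon of 140 bases in Acsl3-201 was in 8 and 5 reads (9.29% of 140), and one of 216 bases in Fdps-203 in 20 and 14 (6.83% of 498). In Fdps, 235 and 268 of 688 spliced reads (73.1%) lay on models with the first exon at 89101959. Models with a listed end at 89101315 took 52 and 59 (16.1%), of which 46 and 50 were of the incomplete class, and whether any of these reads started there was not tested. Mvk models ended at 2 places, with 30 and 34 reads ending in the exon that begins at 114460043 and 11 and 15 in the one at 114452880 (28.6% of 91). Of the reads at 114452880, 3 and 5 lay on a model of the incomplete class, and whether their transcripts ended there was not tested. In each of these genes the same form led in both libraries.

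Chains of exons in no annotated transcript were rare. The 31 genes had 152 such chains with several exons, of which 25 were in both libraries and 8 had at least 5 reads over both and 1 in each. Those 8 belong to Mvk, Fdps, Srebf1, Cyp51 and Fdft1. In Mvk, 2 chains carry an extra exon between the first and second exons of Mvk-201 or Mvk-202, with 4 and 7 reads for one and 5 and 3 for the other. Together with rarer chains, unannotated models made up 39.4% of the complete-model reads of Mvk, more than Mvk-201. In Fdps, 1 chain skips the coding exon of 123 bases (6 and 4 reads) and another moves the acceptor of the last exon (1 and 4). The Srebf1 chain is that of the proximal first exon. The chain of Cyp51 (1 and 5 reads) and both of Fdft1 (3 and 3, and 1 and 4) differ from the annotated transcript by a shifted donor. Such shifts rest on few reads, and read errors near a splice site were not tested as their source.

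Genes around the pathway were read as well. Of 35 related lipid genes, 32 had reads in both libraries and 1, Abca1, had 0 in both. They summed to 4338 ± 237 CPM. Npc2, a lysosomal sterol carrier, had 826 and 802 reads (1089 ± 29.6 CPM), Cyb5r3, a reductase that supplies electrons to desaturases and sterol enzymes, 524 and 637 (779.5 ± 144 CPM), and Tecr, an enzyme of very-long-chain fatty acid elongation, 538 and 514 (703.4 ± 11.1 CPM). Elovl1, an elongase (230.1 ± 32.8 CPM), Slc25a1, the mitochondrial citrate carrier (134.5 ± 7.40 CPM), and Pgrmc1, a partner of sterol cytochromes (123.8 ± 22.4 CPM), came next. Of the 31 tested, the exact binomial test over all genes called only Cyb5r3 (log2 ratio -0.38, adjusted p = 5.38e-04). Its level was the higher in replicate 2.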

How the data were processed

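Total RNA of C2C12 cells was sequenced as long reads in 2 libraries. The deposited tables hold raw counts of reads per transcript model, made by the authors on mm10 with GENCODE M21 per the file headers, and list models with at least 1 read. Model classes follow the TALON format. Sources used here do not give the aligner, versions, read filters or use of strand. Ends of annotated models are those of the annotation and not of single reads. So are many others, since 229 of 400 spliced incomplete or unannotated models of the 31 genes share a 5′ end with an annotated transcript.

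Counts were summed over all models of an annotated gene and scaled to CPM. Genes with at least 10 reads over both libraries entered an exact binomial test, two-sided (SciPy 1.17.1). Isoform use entered Fisher's exact test, two-sided, from 20 complete-model reads per library. Both were adjusted by Benjamini-Hochberg over all genes tested, with a threshold of 0.05. An offset of 0.5 reads went into log2 ratios. Chains were matched between libraries by exact introns. Common dispersion came from edgeR 4.0.16 over both libraries with an intercept only, so it includes their difference. DESeq2 1.42.0 gave alternative size factors, and blastn 2.17.0 gave near-identical transcripts. Shares carry Wilson 95% intervals. Both tests were tested on simulated reads. Promoter sequences are from RefSeq (GRCm38.p6), matched by symbol for 25 of 31 genes in 33 windows. All 31 genes were named. Segments, first and last exons and the Msmo1, Dhcr7 and Srebf1 windows were chosen after their values were seen. The members and lists were chosen with earlier results of these data known. Alternatives covered scaling, read minimums, model classes, a denominator of all reads and each library alone, and the addition of pseudogene reads and the removal of single-exon reads were chosen after seeing the data.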

Additional observations from a re-analysis of the deposited data

How the results depend on the processing

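The series has 1 group of 2 libraries. No paired analysis was possible because there is no other group whose replicate numbers could match. The count of members that differed between the libraries, 2 by the main test, was 1 (Fdft1) with TMM scaling, with DESeq2 size factors, with no filter on low counts and with complete models alone, and 0 with edgeR's exact test and the common dispersion. It stayed at 2 with at least 50 reads. Over all genes the same edgeR test called 9, against 356. Msmo1 kept its direction, with log2 ratios of -0.36 to -0.45, and Fdft1 kept its own. With complete models alone the summed level was 290.3 CPM for SREBP control (366.2 in the main analysis), 269.4 CPM for fatty acid synthesis (479.4) and 2779 CPM for all members (3084). With single-exon reads left out they were 284.1, 295.5 and 2748 CPM. With a denominator of all reads, fatty acid synthesis summed to 469.8 CPM. The median share of complete models, 79.0%, was 71.9% with annotated models alone, and over single libraries ran from 78.9% to 84.6%. Members with a most used transcript at 90% or more were 1, not 12, when the share was taken of all reads of the gene. Unannotated chains, 8 in the main analysis, were 4 with at least 2 reads in each library and 152 with at least 1 read in either. The number of members detected, the isoform calls and all sums with pseudogene reads added stayed within the limits set, with 29 members having a complete-model read in each library. Of 136 alternative values, 113 kept their side, 6 lost a call and 17 moved. Of the 136, 62 were levels of single genes in 1 library, which always lie within the SD of the 2 libraries. They could not move, and neither could the sums by role in 1 library, so their staying carries no information. A reversal was looked for only in the ratios of Fdft1 and Msmo1, and there was none. Depth limits the genes with few reads most, such as Acaca with 13.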
